A study of Mus musculus with 6 samples.

Results

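The *Obox* homeobox paralogues *Obox1*, *Obox2*, *Obox3*, *Obox5* and *Obox6* were taken by symbol from a table of read counts on 53465 genes, so 5 of 53465 genes are described. The counts came from MII oocytes, which have completed meiosis I and are arrested at metaphase II, of female Kunming (KM) mice aged 9 to 10 months, a naturally aged model in a closed outbred stock. The mice had been injected with pregnant mare serum gonadotropin before collection, and cumulus cells had been stripped by pipetting. Germinal vesicle oocytes were matured in vitro for 16 h in M16 medium. The control group (3 pools) had no quercetin. The quercetin group (3 pools) had 10 μM quercetin, a plant flavonol that was dissolved in DMSO. The study's methods do not say whether the control medium held DMSO. A pool held 15 oocytes of 3 mice, and the Smart-seq HT kit, designed for very small inputs, turned their polyadenylated RNA into full-length cDNA. Each value therefore describes a pool, and fewer oocytes holding a transcript and less of it per oocyte cannot be told apart. The comparison asks which transcripts differ in aged oocytes matured with quercetin, and p-values measure only the spread between these pools.

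*Obox* genes encode homeodomain proteins, DNA-binding factors that in mice lie in a large tandem cluster with many pseudogenes. *Obox1*, *Obox2*, *Obox5* and *Obox7* are known as maternal members, whose transcripts are stored in the oocyte, while *Obox3* and *Obox6* are known as embryonic members, transcribed after fertilization. OBOX proteins act redundantly in zygotic genome activation, when the embryo starts its own transcription. *Obox7*, which is not among the 5 members, is given below only as a further expressed paralogue.

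The homeobox, the stretch coding for the DNA-binding homeodomain, is shown because it lets a reader see how alike the members are to an aligner. The 180 bases come from 1 GENCODE M21 transcript a gene on GRCm38, run 5′ to 3′ on the coding strand and cross 2 exons. Capitals mark bases that differ from *Obox1*.
Obox1: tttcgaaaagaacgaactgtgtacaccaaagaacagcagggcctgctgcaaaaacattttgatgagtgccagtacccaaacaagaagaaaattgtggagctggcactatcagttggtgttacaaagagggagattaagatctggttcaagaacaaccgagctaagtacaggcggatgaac
Obox2: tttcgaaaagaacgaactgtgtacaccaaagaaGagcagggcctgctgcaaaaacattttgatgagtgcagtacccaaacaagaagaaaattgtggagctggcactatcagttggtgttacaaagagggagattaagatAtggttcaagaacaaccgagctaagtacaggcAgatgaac
Obox5: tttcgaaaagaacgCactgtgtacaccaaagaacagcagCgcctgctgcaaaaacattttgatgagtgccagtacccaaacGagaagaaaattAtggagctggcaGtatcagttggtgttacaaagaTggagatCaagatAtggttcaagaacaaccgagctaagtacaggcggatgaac
Obox3: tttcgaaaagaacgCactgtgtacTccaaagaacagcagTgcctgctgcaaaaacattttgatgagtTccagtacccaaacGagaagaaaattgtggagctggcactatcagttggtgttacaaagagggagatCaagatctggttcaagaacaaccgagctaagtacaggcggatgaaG
Obox6: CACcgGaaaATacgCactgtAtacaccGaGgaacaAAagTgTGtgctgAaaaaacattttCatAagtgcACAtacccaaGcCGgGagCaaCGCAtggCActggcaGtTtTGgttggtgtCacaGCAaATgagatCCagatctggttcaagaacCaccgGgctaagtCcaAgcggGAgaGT
In genome coordinates, intron included, these stretches lie at chr7:15555567-15556192 for *Obox1* and chr7:15397250-15397875 for *Obox2*, both on the plus strand. That of *Obox5* lies at chr7:15757941-15758580 on the plus strand, that of *Obox3* at chr7:15626284-15626933 on the minus strand and that of *Obox6* at chr7:15833909-15834517 on the minus strand. Against *Obox1*, the homeobox of *Obox2* had 3 substitutions and 1 missing base, that of *Obox3* 7 substitutions and that of *Obox5* 8. *Obox6* had 52 substitutions and was 71.1% identical to *Obox1*, so the embryonic members did not form a sequence group of their own, since *Obox3* was 96.1% identical to *Obox1* and 71.7% to *Obox6*. The missing base of *Obox2* shifts its reading frame, and its annotated coding sequence of 453 bases ends inside the homeobox stretch, against 612 bases for *Obox1*, 873 for *Obox5*, 1005 for *Obox3* and 1041 for *Obox6*. This is the reference sequence, made from another strain than the Kunming stock, and reads were not examined here.

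Over whole transcripts, sharing was measured as the percent of a gene's 31-base words that also occur in another gene's transcripts. *Obox2* shared 80.3% of its words with at least 1 other gene and *Obox1* shared 71.2%. The sharing lay mostly between these members, with 73.1% of the words of *Obox2* found in *Obox1* and 65.8% of those of *Obox1* found in *Obox2*, so 327 words of *Obox2* and 530 of *Obox1* occurred in no other gene. *Obox5* shared 38.7% of its words, 24.8% with *Obox7* and 15.1% with *Obox1*, which left 1325 words of its own. Among the embryonic members *Obox3* shared 31.2%, 19.9% with the pseudogene *Obox3-ps3* and 4.42% with *Obox1*, and *Obox6* shared 14.6%, 13.5% with *Obox6-ps1* and 0.381% with *Obox1*. How reads that match several genes were counted is not given in the sources used here, so the split of counts between *Obox1* and *Obox2* is uncertain. Annotated exons of *Obox1* and *Obox2* overlapped by 59 bases, and those of the other members overlapped no gene.

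**Figure D1:**
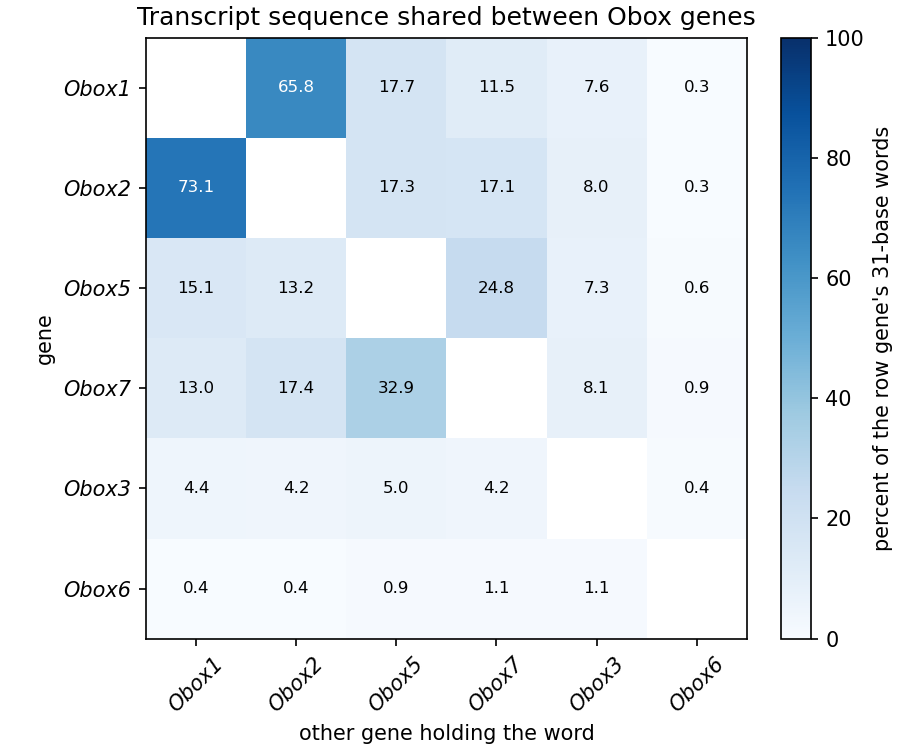
Percent of the 31-base transcript words of each row gene that also occur in the column gene, for the 5 members and *Obox7*. *Obox1* and *Obox2* share the most (65.8% and 73.1%), and no pair with *Obox6* is above 1.07%.

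RefSeq promoter windows of GRCm38.p6, from 250 bases before to 50 bases after the annotated start, were found for *Obox1*, *Obox2*, *Obox3*, *Obox5* and *Obox7*. The letters TATATAA, searched on both strands, stood in those of *Obox1*, *Obox3*, *Obox5* and *Obox7*, and in 3.24% of all 32851 windows. The 30 bases around the match are shown for a maternal and an embryonic member, with the match in capitals.
Obox1: gtttgcagagaTATATAAgggcaggtcttc
Obox3: gtttggagagaTATATAAgggcaggtcttc
The first is at chr7:15547227-15547256 on the plus strand and the second at chr7:15639789-15639818 on the minus strand, each inside its gene as GENCODE annotates it. *Obox5* and *Obox7* held the same 30 bases as *Obox1*. Over the aligned parts of the windows, *Obox3* was 86.3% identical to *Obox1*, and *Obox5* was 95.5% identical to *Obox1*. The window of *Obox2* held no match. Its 203 bases aligned to the *Obox1* window were 100% identical but did not reach the match. That place was therefore not searched in *Obox2*.

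The 6 libraries held 7880467 to 9938743 counts on genes, and values were scaled by TMM factors of 0.920 to 1.06 into CPM, counts relative to library size. Of the genes, 24476 had a count and 11842 had enough counts to be tested. All 12 oocyte markers were present, at a summed 32316 to 34900 CPM in control pools and 33106 to 40214 CPM in quercetin pools. Of 14 cumulus and granulosa markers 10 had a count. Their sum was 71.2 to 87.0 CPM in control and 91.9 to 98.5 CPM in quercetin pools, without overlap, as for 10.6% of tested genes. Most of it was *Cyp19a1* (aromatase) at a mean of 69.2 CPM, while *Amh*, *Foxl2*, *Nr5a1* and *Ptx3* were at 0 in every pool, and the part of these markers in the results was not tested. Of 8 blood and stromal markers 4 had a count, at 32.4 to 37.9 CPM in control and 34.1 to 40.7 CPM in quercetin pools.

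The maternal members were among the most abundant transcripts of these oocytes, and the embryonic members were at or near 0. *Obox1*, *Obox2* and *Obox5* together held 1.92% ± 0.184 of all counts in control pools and 1.82% ± 0.210 in quercetin pools (mean ± SD, n = 3 each). By mean CPM over the 6 pools *Obox2* ranked 6, *Obox1* 18 and *Obox5* 21 among all genes, and *Obox7* ranked 222. *Obox3* had 38 counts and *Obox6* had 1 count in the 6 pools together.

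*Obox2* was the most abundant member by the deposited counts, although their split with *Obox1* is uncertain. *Obox2* was at 8142, 9542 and 9963 CPM in control replicates 1 to 3 and at 10777, 11337 and 8352 CPM in quercetin replicates 1 to 3. The groups overlapped, since quercetin replicate 3 lay below 2 of the control pools. The means were 9216 ± 954 and 10155 ± 1587 CPM (SD, n = 3 each), a log2 fold change of 0.14 (SE 0.17, edgeR quasi-likelihood test, adjusted p = 0.988). An interval of 2 SE ran from -0.19 to 0.47.

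*Obox1*, the near copy of *Obox2*, was at 3723, 4195 and 5972 CPM in control pools and at 4680, 4665 and 4967 CPM with quercetin. All quercetin pools lay between control replicates 2 and 3, so the groups overlapped. The log2 fold change was 0.043 (SE 0.19, edgeR adjusted p = 0.997; interval -0.33 to 0.42) with means of 4630 ± 1186 and 4770 ± 170 CPM (n = 3 each), and its sign turned to -0.033 with scaling by library size only. The sum of *Obox1* and *Obox2* was 13846 ± 2037 CPM in control and 14926 ± 1418 CPM in quercetin pools, with overlapping ranges. This sum does not depend on how reads were split between them. It does depend on whether reads matching several genes were counted, and how often, which is not known.

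Of the 3 maternal members, *Obox5* had the quercetin pools that were farthest apart. It was at 4864, 4517 and 4953 CPM in control pools and at 3009, 6339 and 2437 CPM with quercetin. Quercetin replicates 1 and 3 lay below every control pool and replicate 2 lay above every one. The means were 4778 ± 230 and 3929 ± 2107 CPM (n = 3 each), with a log2 fold change of -0.28 (SE 0.31, edgeR adjusted p = 0.988; interval -0.91 to 0.34). The edgeR unadjusted p with all pools was 0.391. Without quercetin replicate 2, the pool above the controls, the log2 fold change was -0.81 (SE 0.17, edgeR adjusted p = 0.846, unadjusted p = 0.0012). In that fit 147 higher and 174 lower of 11842 genes had an edgeR unadjusted p under 0.05. Without quercetin replicate 3 the log2 fold change of *Obox5* was -0.032 (edgeR unadjusted p = 0.911).

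**Figure D2:**
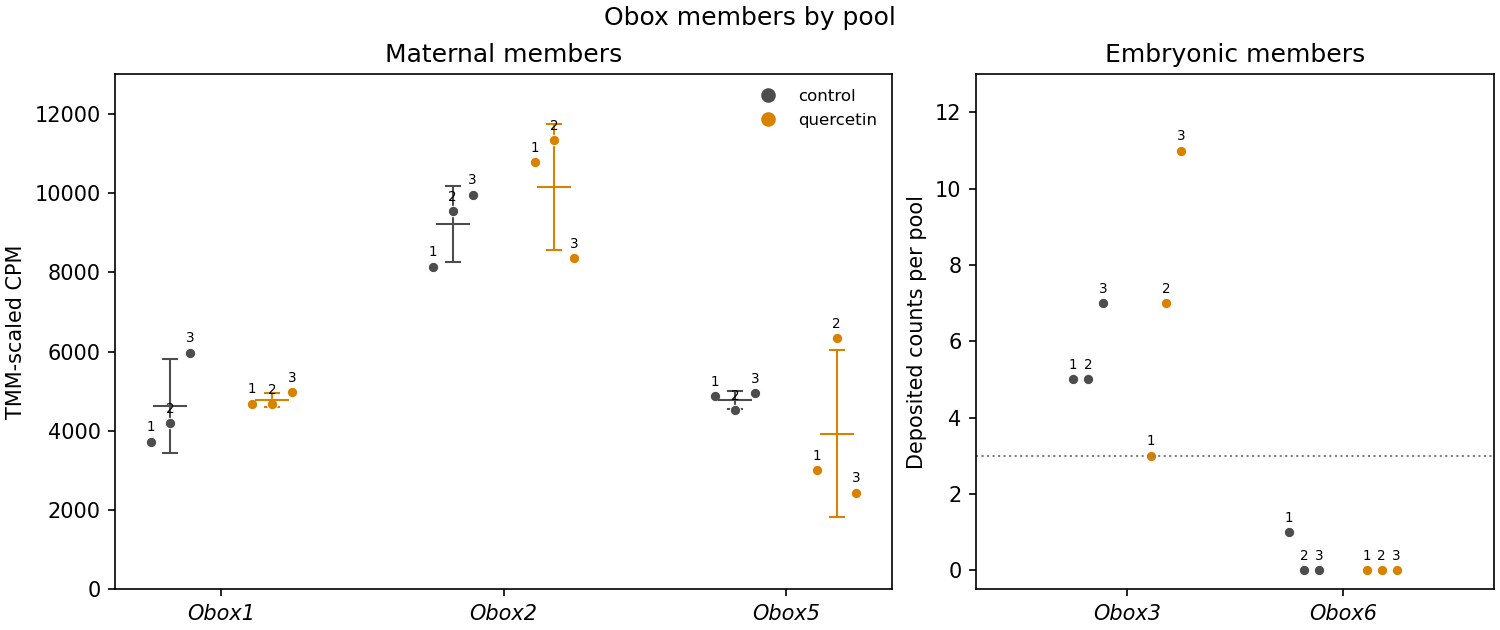
Left, TMM-scaled CPM of the maternal members, with points for pools (numbers are replicates) and lines and bars for mean ± SD of 3 pools. Right, deposited counts of the embryonic members, with the floor of 3 counts dotted. *Obox5* spans 2437 to 6339 CPM in quercetin pools, and *Obox6* has 1 count in all.

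The spread of *Obox5* was set beside that of the 317 genes with a mean of at least 500 CPM. Its quercetin pools differed 2.60-fold between highest and lowest, where 10 genes had a larger ratio and the median was 1.33. Its control pools differed 1.10-fold, where 260 genes had a larger ratio and the median was 1.20. *Obox1* had the opposite order, with 1.60-fold in control pools (21 genes larger) and 1.06-fold in quercetin pools (309 genes larger). The difference in spread between the groups was not tested.

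*Obox5* was also set against *Obox2* within each pool. Its counts were 0.597, 0.473 and 0.497 of those of *Obox2* in the control group, and 0.279, 0.559 and 0.292 in quercetin pools. The ratio was again low in quercetin replicates 1 and 3, while quercetin replicate 2 fell within the control range. The ratio of *Obox1* to *Obox2* was 0.457, 0.440 and 0.599 in the control group and 0.434, 0.411 and 0.595 with quercetin, which overlapped.

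*Obox7*, the maternal paralogue closest to *Obox5* in transcript words, was at 707 ± 69.8 CPM in control and 649 ± 122 CPM in quercetin pools (n = 3 each). Its log2 fold change was -0.12 (SE 0.17, edgeR adjusted p = 0.988).

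*Obox3*, known from the early embryo, was covered by 5, 5 and 7 reads in the control group and by 3, 7 and 11 in the quercetin group. A count of 3, used as the floor, was worth 0.328 to 0.375 CPM, and covers counting error only, since the reads were amplified and carry no molecular identifiers. *Obox3* was thus at 0.648 ± 0.120 and 0.810 ± 0.460 CPM (n = 3 each), too low for the whole-table test. The groups overlapped, and the difference in log2 CPM (prior count 2) was 0.15 (p = 0.8 in an exact, two-sided permutation test whose smallest possible p is 0.1 with 3 pools a group). Its 8 annotated pseudogenes held 1053 counts, and 6 of the 8 had more counts than *Obox3*. Of the 1053, *Obox3-ps8* had 386, *Obox3-ps5* 291 and *Obox3-ps2* 132. In that order they shared 43.5%, 96.8% and 88.4% of their words with other genes, so the source of these counts is uncertain.

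*Obox6*, the most diverged member, had 1 count in control replicate 1 and 0 in the other pools. Both groups were under the floor, so no fold change is given, and the gene was not detectable at this depth.

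Of the 5 members, 3 had enough counts for the test, and 0 passed an adjusted p under 0.05 with a fold change over 2, against 0% of all 11842 genes tested by edgeR's quasi-likelihood test. The members past the criteria were also 0 by DESeq2 and by edgeR's likelihood ratio test. At an unadjusted p under 0.05, 0 of the 3 passed, against 4.03% (477) of the tested genes. For 0 of the 3 were the groups free of overlap, against 10.6% of the tested genes. With so few members tested, these shares cannot be told from the background.

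**Figure D3:**
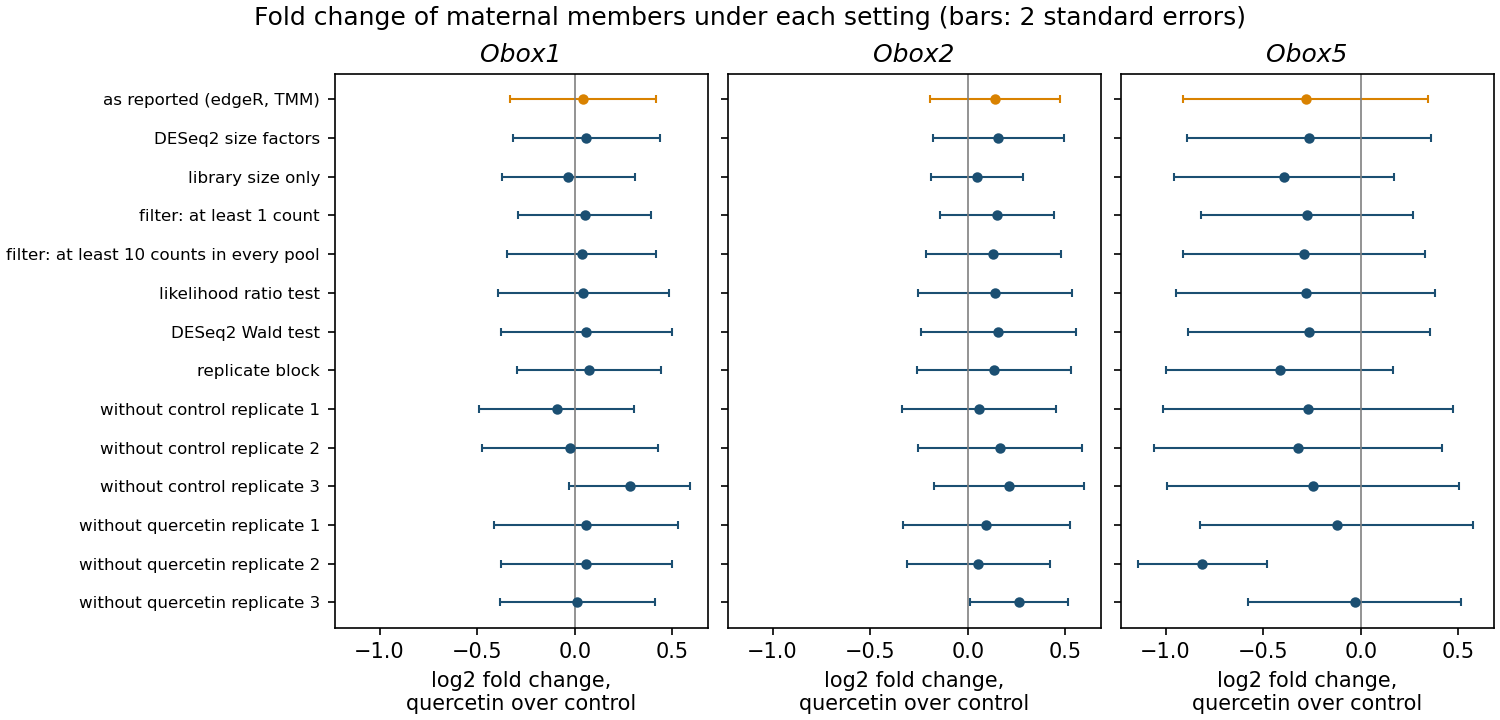
Log2 fold change (quercetin over control) of the maternal members under each setting, with bars of 2 standard errors and the reported value in orange. *Obox5* runs from -0.81 without quercetin replicate 2 to -0.032 without quercetin replicate 3, and *Obox1* crosses 0.

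Levels of different genes were compared per kb of exon. Divided by the union of exons, *Obox2* was at 5884 ± 777 CPM per kb, *Obox1* at 2474 ± 401 and *Obox5* at 2038 ± 664 (SD over 6 pools). *Obox7* was at 423 ± 58.9 CPM per kb and *Obox3* at 0.228 ± 0.098. As the deposited counts were split, *Obox2* was above *Obox1* in 6 of 6 pools, by 2.38-fold on average. *Obox1* and *Obox5* were neighbours whose ranges overlapped, with *Obox1* higher in 4 of 6 pools. When the length was the number of words found in no other gene, *Obox1* was higher than *Obox5* in 6 of 6 pools, by 2.70-fold, and the order of the other genes was kept. A length of words in no other gene holds only if reads of shared sequence were left uncounted, which is not known. It also takes reads to be no longer than a word, and read length was not taken into account. Longer reads could hold a word found in no other gene at more places. The levels per kb by this length could then be lower, and the ratios between genes could differ. By the union of exons *Obox1* and *Obox2* were 10828-fold and 25756-fold above *Obox3*, and by words found in no other gene 26507-fold and 88530-fold. These ratios rest on the 38 counts of *Obox3*, and none is given against *Obox6*, which had 1 count. No test was made between genes.

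**Figure D4:**
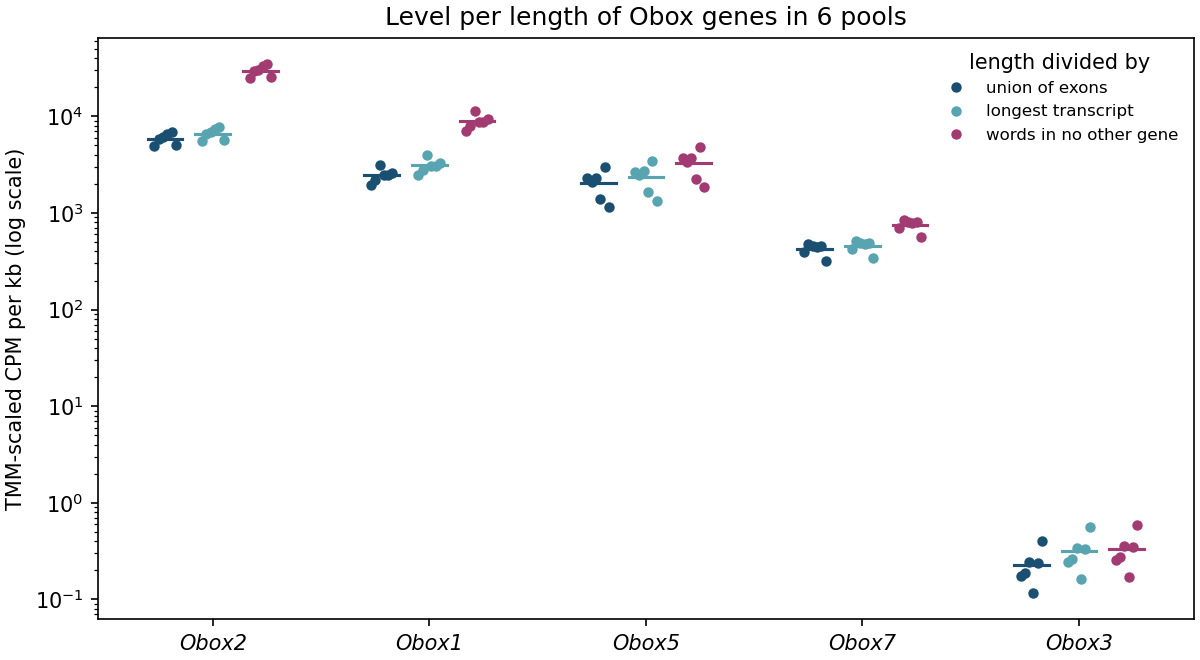
TMM-scaled CPM per kb on a log scale in 6 pools (points) with their mean (line), for 3 ways of measuring length; *Obox6* is left out because 5 of its pools are at 0. The maternal genes lie orders of magnitude above *Obox3*, which averages 0.228 CPM per kb by the union of exons.

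The members lie on chromosome 7. *Obox1* (ENSMUSG00000054310) is annotated from 15388948 to 15556866 and *Obox2* (ENSMUSG00000074369) from 15388721 to 15398545, both on the plus strand, because 1 transcript of *Obox1* starts within *Obox2*. *Obox5* runs from 15750131 to 15759800 on the plus strand, *Obox3* from 15479825 to 15639902 and *Obox6* from 15833241 to 15839678 on the minus strand. From 14331436 to 15839678, a span of 1.51 Mb, the table held 53 *Obox*-named genes and 31 others. Of the 31, 7 had a count and 0 reached 5 CPM. Of the 50 *Obox*-named genes that are not members, 34 were at 0 in every pool, all of them among the 39 *Obox4* pseudogenes, and 7 were tested, *Obox7* and 6 *Obox3* pseudogenes. The abundant maternal genes thus stood in a stretch with few other counts. Some *Obox4* pseudogenes, such as *Obox4-ps14*, shared 100% of their words with other genes. Their zeros depend on how reads matching several genes were counted, so they do not show absence.

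**Figure D5:**
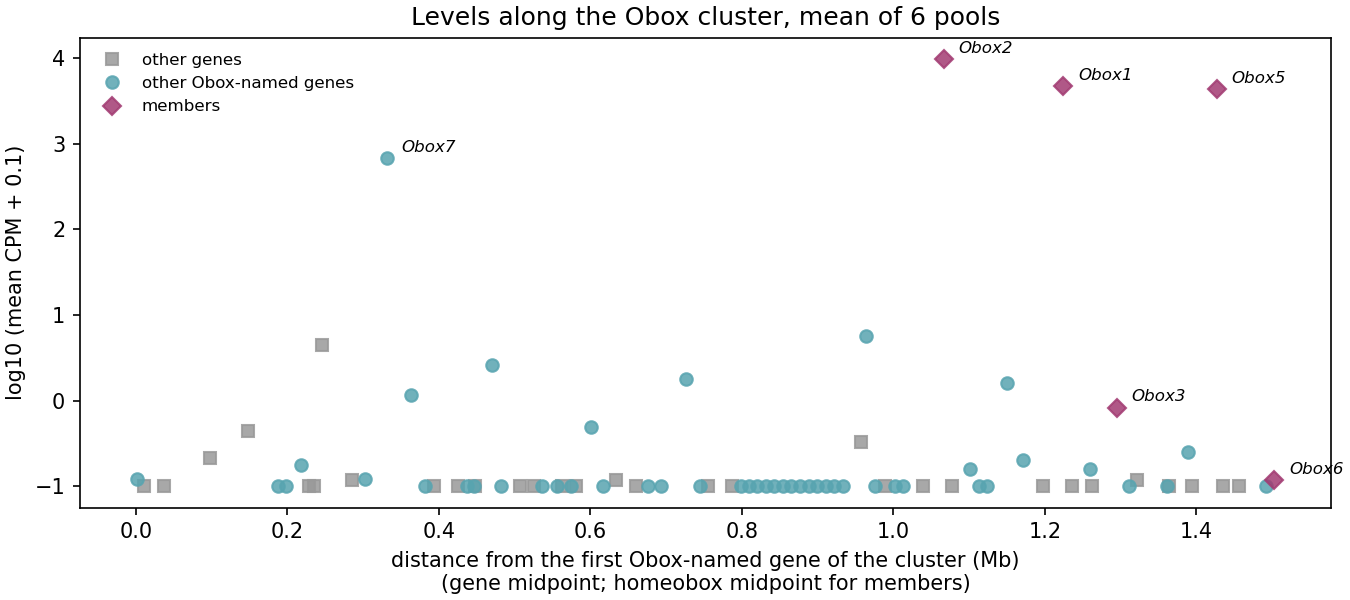
Mean CPM over 6 pools (log10 after adding 0.1) of genes along the cluster on chromosome 7, against distance in Mb from the first *Obox*-named gene. *Obox2*, *Obox1*, *Obox5* and *Obox7* stand above all other genes there, most of which are at 0.

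Across the 6 pools, which share libraries and scaling, Pearson's r of log2 CPM was 0.36 between *Obox1* and *Obox2*, -0.13 between *Obox1* and *Obox5*, and 0.37 between *Obox2* and *Obox5*. *Obox7* was at 0.71 with *Obox2* and 0.67 with *Obox5*. Among 7914 tested genes at a mean of at least 5 CPM, those most like *Obox1* were *Zfp942* (r = 0.990) and *Napg* (0.970). Those most like *Obox2* were *Cenpa*, the centromeric histone variant (0.989), and *Pex3*, a peroxisome biogenesis factor (0.984). Those most like *Obox5* were *Rplp2*, a ribosomal protein (0.992), and *Mat2b*, a regulatory subunit of methionine adenosyltransferase (0.991). *Mat2b* counts were 33164, 29390 and 36715 in the control group, against 15628, 44653 and 14474 with quercetin. They were low in quercetin replicates 1 and 3 as *Obox5* was, which follows from choosing *Mat2b* by its correlation with *Obox5*. With 6 points and this many genes searched, 30 genes had r over 0.9 with *Obox1*, 118 with *Obox2* and 62 with *Obox5*.

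Genes around the members in oocyte and embryo regulation were given by list, and 0 genes of any list passed the criteria. The median log2 fold change over all tested genes was -0.026. Of 12 oocyte transcription regulators 10 were tested, 5 with a positive and 5 with a negative value and a median of 0.0027, led by *Sall4*, a zinc-finger factor (758 ± 228 and 754 ± 150 CPM, n = 3 each), *Gtf2a1l* and *Foxo3*. Of 14 maternal regulators of genome activation 13 were tested, 6 positive and 7 negative, with a median of -0.072. *Btg4*, an adaptor for maternal mRNA decay, was the most abundant of them at 10804 ± 2048 and 11730 ± 1319 CPM (n = 3 each), followed by *Cnot6l* and *Trim28*. Of 12 paired-like homeobox relatives 11 were in the table, 6 of them at 0, and 2 were tested, *Otx1* at a log2 fold change of -0.72 (SE 0.43, edgeR adjusted p = 0.988) and *Duxbl1* at -0.65 (SE 0.88, edgeR adjusted p = 0.988). Of 21 genes of the 2-cell embryo 20 were in the table and 16 had a count, but only *Tcstv1* and *Tcstv3* were tested, at 0.00096 (SE 0.14) and -0.14 (SE 0.23). Of the oocyte markers, led by *Tcl1*, *Dppa3* and *Gdf9*, 7 values were positive and 5 negative, with a median of 0.10.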

How the data were processed

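RNA of 6 MII oocyte pools was sequenced, 3 control and 3 quercetin by the sample labels. The authors deposited counts, whole numbers of reads per Ensembl gene, without normalization. The study's methods name Hisat2 and GRCm38.91, while the submitters' processing notes list CASAVA 1.8, TopHat2 2.0.6, mm10 and GRCm38. The counting program, its use of strand and of reads matching several genes are not given in the sources used here. Symbols matched 53274 of 53465 identifiers.

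Genes passing filterByExpr of edgeR 4.0.16 (minimum count 10) were scaled by TMM and tested by the quasi-likelihood test in R 4.3.3, with no covariate and with p-values adjusted by Benjamini-Hochberg across the 11842 genes of the fit. A call needed a fold change over 2 and an adjusted p under 0.05. For genes below the filter, an exact permutation test (two-sided) was used. Total counts per pool were 7880467 to 9938743, and 3 counts were taken as the floor.

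The 31-base words, exon lengths and homeoboxes came from GENCODE M21 (GRCm38). The homeobox of *Obox1* was taken as 60 codons around its conserved tryptophan codon at place 48, and aligned to the other transcripts with Biopython 1.88 in Python 3.11.15. Promoter windows came from RefSeq (GRCm38.p6). The test was also run on simulated data, and the outcome is not given here.

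The alternatives tried were the likelihood ratio test of edgeR, DESeq2 1.42.0, other scalings, filters and lengths, leaving out each pool, and the replicate number as a block. Besides the members, named genes were the most abundant *Obox*-named genes, the 3 most abundant of each list, the 2 genes most correlated with each member, genes sharing most words and cluster genes at 5 CPM or more. *Mat2b* is among the correlated genes. *Amh*, *Foxl2*, *Nr5a1* and *Ptx3* are named as markers at 0. The members and the 7 lists were chosen with earlier results of these data known.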

Additional observations from a re-analysis of the deposited data

How the results depend on the processing

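No member passed the criteria under any alternative. Over all tested genes, 0 higher and 0 lower became 2 and 1 with a filter of at least 1 count, 6 and 10 by edgeR's likelihood ratio test, and 5 and 7 by DESeq2's Wald test. Leaving out each pool in turn gave 0 to 2 higher and 0 to 6 lower genes. With scaling by library size only, the median log2 fold change moved from -0.026 to -0.11, and genes at an unadjusted p under 0.05 went from 253 higher and 224 lower to 145 and 359. The log2 fold change of *Obox1* turned to -0.033 with library size only, -0.092 without control replicate 1 and -0.023 without control replicate 2, and ranged up to 0.28 when a pool was left out. That of *Obox3* was -0.17 without quercetin replicate 3, and up to 0.50. When a pool was left out, *Obox2* ran from 0.054 to 0.26 and *Obox5* from -0.81 to -0.032, and with library size only they were at 0.046 and -0.39. The edgeR and DESeq2 adjusted p ran from 0.972 to 1.00 for *Obox1*, 0.432 to 1.00 for *Obox2* and 0.834 to 1.00 for *Obox5*. The causes were not tested. Levels per kb depend on the length by construction. Words in no other gene, as a length, assume that shared reads were not counted and that reads were no longer than a word. *Obox1* was at 3109 CPM per kb by its longest transcript. By words in no other gene, *Obox1* was at 8868, *Obox2* at 29620, *Obox3* at 0.335 and *Obox5* at 3286. Leaving out a pool gave 2340 to 2577 for *Obox1*, 5684 to 6072 for *Obox2*, 0.193 to 0.251 for *Obox3*, 1852 to 2217 for *Obox5* and 0 to 0.0166 for *Obox6*. The labels number the pools 1 to 3 in each group. Same-numbered pools correlated at 0.296, 0.101 and -0.0303 in their deviations, and 3 of 6 pools correlated best with their own number. With 3 pools a group this cannot decide whether the pools were paired. They were not treated as paired in the reported fit. The replicate block gave *Obox1* 0.073, *Obox2* 0.13 and *Obox5* -0.42 (edgeR adjusted p = 0.906), with 0 genes called. A fold change of *Obox6* is not given, because both groups were under the floor, and it entered only the fit with a filter of at least 1 count. Not run was *Obox3* by the likelihood ratio test, DESeq2, the block and the filter of 10 counts in every pool, where it was not in the fit. Depth limits *Obox3* and *Obox6*, which had too few counts to show a difference.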
